A study of Mus musculus with 10 samples.

Results

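The eIF4F cap-binding complex and the cofactors of its helicase eIF4A were followed in mouse embryonic stem cells by the footprints of ribosomes on their own mRNAs. The genes were chosen by name, namely Eif4a1, Eif4a2, Eif4a3, Eif4g1, Eif4g2, Eif4e, Eif4b, Eif4h, Eif4ebp1 and Pdcd4. Of these 10 genes, 9 matched a coding transcript among the 14534 coding transcripts and 15269 transcripts in all, and Eif4g2 was not analysed here. The cells were CGR8, a feeder-free embryonic stem cell line of strain 129, and all libraries came from this single line. Ribosome profiling, which sequences the mRNA fragments that ribosomes protect from RNase I, was made for 4 conditions with 2 libraries each. The conditions were a control without inhibitor, 1 µM DMDA-PatA for 10 min, 2 µg/ml harringtonine for 10 min and 0.2 mg/ml puromycin for 20 min. All of these cells received the same amount of the solvent DMSO, and cycloheximide was added during harvest. A further 2 libraries, called the transcriptome, held fragmented total RNA of cells without inhibitor.

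eIF4F brings the small ribosomal subunit to the capped end of an mRNA. It joins the cap-binding protein eIF4E, the scaffold eIF4G and the DEAD-box RNA helicase eIF4A, whose activity is raised by eIF4B and eIF4H, while 4E-BP1 withholds eIF4E and Pdcd4 withholds eIF4A. DMDA-PatA, an analogue of the natural product pateamine A, binds eIF4A, harringtonine stops ribosomes that have just begun elongation, and puromycin ends nascent chains early. The footprint numbers give the ribosomes on the mRNAs of these factors, and neither protein output nor the activity of the proteins was measured.

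The start codons of the members lie in the following sequences, shown because they mark the border of 5' UTR and ORF. For Eif4e, Eif4h and Eif4ebp1 the listed ORF start differed from the annotated codon shown, so that their footprints may have been divided at another base. They are written in DNA letters from GENCODE M21 transcripts on GRCm38, 5' to 3', with the start codon in capitals.
Eif4a1, chr11:69672295-69672313, minus strand: attctaaggatcATGtctg
Eif4a2, chr16:23107780-23107798, plus strand: ggttttcggatcATGtctg
Eif4a3, chr11:119299990-119300008, minus strand: ggaatccggatcATGgcgg
Eif4g1, chr16:20674276-20674294, plus strand: caagcgacacaaATGaaca
Eif4e, chr3:138527285-138527303, plus strand: gatcgatctaagATGgcga
Eif4b, chr15:102073939-102073957, plus strand: ccctctcccaacATGgcgg
Eif4h, chr5:134639293-134639311, minus strand: cggagacggcaaATGgcgg
Eif4ebp1, chr8:27260397-27260415, plus strand: cgtgcaggagacATGtcgg
Pdcd4, chr19:53907501-53907519, plus strand: aattaaggaaaaATGgata
In 7 of the 9 sequences the base 3 positions before the start codon was a purine, and in 5 of 9 the base after it was G, the letters commonly found around mammalian start codons. The 3 helicases share the bases ggatc in front of it, after which Eif4a1 and Eif4a2 are alike and Eif4a3 differs.

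In 2 members the listed 5' UTR held AUG codons ahead of the ORF, 4 in the 325 nt of Eif4g1 and 2 in the 290 nt of Pdcd4. Their reading frames all ended within the 5' UTR, after 2 to 32 codons in Eif4g1 and after 59 and 66 codons in Pdcd4. A pair of the Eif4g1 sites, which open frames of 6 and 32 codons, and the Pdcd4 site with 66 codons are shown with the upstream AUG in capitals.
Eif4g1, chr16:20673873-20673891, plus strand: ggggggaccctaATGtggc
Eif4g1, chr16:20673890-20673908, plus strand: gcaccaaatgaaATGaaca
Pdcd4, chr19:53892236-53892254, plus strand: attcctccagctATGtggc
Footprints of single upstream frames were not analysed here, so that only the sum over each 5' UTR is given.

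Recovered reads on coding transcripts ranged from 1027314 to 11161453 in the ribosome profiling libraries and were 25508180 and 59271162 in the transcriptome. All 9 stem cell markers, Pou5f1, Nanog and Sox2 among them, had reads in every library. Of the 6 markers of mesoderm, ectoderm or fibroblasts, Col1a1 was abundant (132308 and 136627 normalized reads in the transcriptome), the other 5 had from 3.24 to 2595 there, and the 4 listed endoderm markers summed to 160.3 to 203 there. The part of other cells in the results was not tested.

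The authors discarded reads with multiple matches in the genome, and the members differed in how much of their sequence occurs elsewhere. Of the 1189 windows of 30 nt in the Eif4a1 ORF, 99.2% had an exact copy elsewhere in the genome and only 2 windows occurred at the Eif4a1 locus alone. The share of windows with a copy elsewhere was 85.9% for Eif4e, 48.4% for Eif4a3, 40.6% for Eif4a2, 16.2% for Eif4b, 15.2% for Eif4ebp1, 1.30% for Eif4g1, 0.420% for Eif4h and 0% for Pdcd4. The coding sequences around the DEAD box of the helicases are shown, with the codons of the DEAD box in capitals.
Eif4a1, chr11:69668704-69668733, minus strand: ttcgtactgGATGAAGCAGATgaaatgtta
Eif4a2, chr16:23110254-23110283, plus strand: ttcgttttgGACGAAGCAGATgaaatgttg
Eif4a3, chr11:119294332-119294361, minus strand: ctggttttgGATGAGGCTGATgaaatgttg
Over these 30 bases Eif4a2 differed from Eif4a1 at 4 positions and Eif4a3 at 7, so that neither is an exact copy of the Eif4a1 stretch. The Eif4a1 stretch occurred 4 times in the genome, that of Eif4a2 at 1 place and that of Eif4a3 at 2 places. In the transcriptome the ORF of Eif4a1 had 43.4 normalized reads per kb and its 3' UTR had 769.7 per kb, and in Eif4e the ORF (60.7 per kb) was also below the 3' UTR (177 per kb). The same order held for Eif4h, which has few copies (5577 and 7225 per kb), whereas in Eif4g1 the ORF, at 10931 per kb, was above the 3' UTR at 3767 per kb. The levels of Eif4a1 and Eif4e are given with the reads behind them, and the part of discarded reads in them was not tested.

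**Figure D1:**
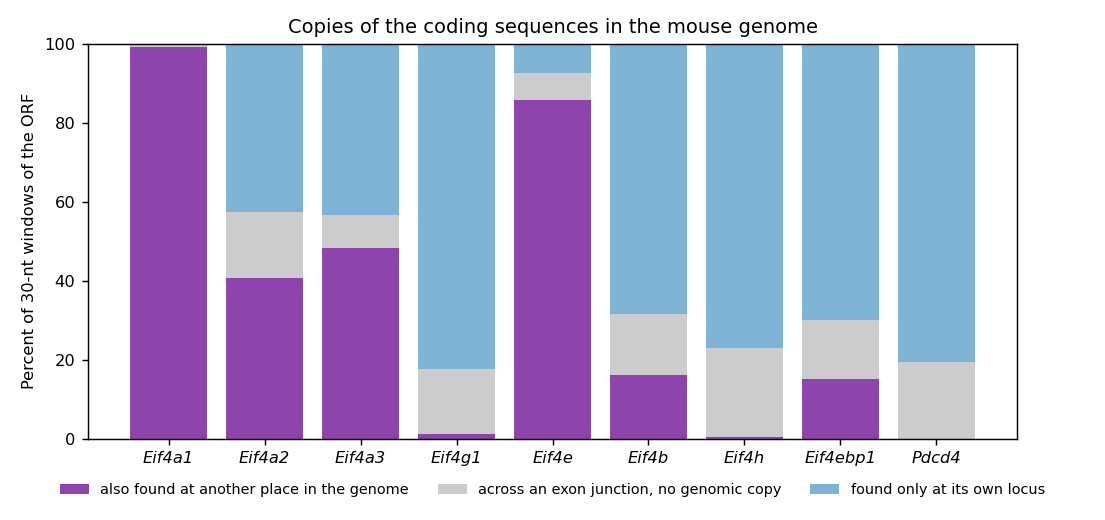
Bars show the percent of all 30-nt windows of each listed ORF that occur at another place in the mouse genome, that span an exon junction and have no genomic copy, or that occur only at their own locus. Nearly the whole Eif4a1 bar (99.2%) and most of the Eif4e bar (85.9%) are sequence found elsewhere, against 0% for Pdcd4.

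In the control the members differed widely in footprint density. Per kb of ORF, the normalized footprints of the control libraries were 5313 and 4558 for Eif4ebp1, 4969 and 4743 for Eif4h, 3312 and 2886 for Eif4b, and 3148 and 2883 for Eif4g1. Eif4ebp1 overlapped with Eif4h, and Eif4b with Eif4g1, so that the order within each of these pairs is not resolved. Next came Eif4a3 with 1757 and 2045 per kb, Eif4a2 with 1378 and 1008, Pdcd4 with 556 and 481, Eif4e with 199 and 155, and Eif4a1 with 14.5 and 4.47. From Eif4a3 downwards no neighbours overlapped, and the lowest places were those of the ORFs richest in genomic copies.

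Relative to their transcriptome reads, most members carried more footprints than coding transcripts in total. With libraries scaled to equal sums of ORF reads, 6 of 9 members were higher in footprints and 3 lower (29.9% and 41.2% of all 13717 transcripts), and the median log2 ratio was 1.07 for the members and -0.19 for all transcripts. The largest ratio was that of Eif4e, which had 110 and 111 control footprint reads against 26 and 60 transcriptome reads (log2 2.83 ± 0.22 SE, edgeR adjusted p = 2.94e-08). Only 46 of the 622 windows of its ORF occur at its own locus alone, and the part of discarded reads in this ratio was not tested. The helicase of the exon junction complex, Eif4a3, reached 1.62 ± 0.13 (adjusted p = 4.24e-08). The initiation helicase Eif4a2 lay at -0.56 ± 0.11 (adjusted p = 0.000463), on the other side of the scaled total. The inhibitors Pdcd4 (1.35 ± 0.11, adjusted p = 7.74e-08) and Eif4ebp1 (1.07 ± 0.10, adjusted p = 2.21e-07) and the cofactors Eif4h (1.12 ± 0.11, adjusted p = 4.81e-07) and Eif4b (0.70 ± 0.10, adjusted p = 3.08e-05) were all above it. The scaffold Eif4g1 was below it (-0.55 ± 0.10, adjusted p = 0.000118), although it had the most reads of all members in both kinds of library. Eif4a1, with 15 and 6 footprint reads against 26 and 101 transcriptome reads, was at -1.05 ± 0.43 (edgeR adjusted p = 0.0416), and without control replicate 2 it was at -0.44 with adjusted p = 0.391. It was at -0.54 without transcriptome replicate 2 (adjusted p = 0.442) and at -1.97 without control replicate 1.

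At the median of the members all drugs lowered the ORF footprints, DMDA-PatA the most, though Eif4ebp1 and Eif4b departed from this with harringtonine. Of the 8 members with enough reads to be tested, 8 fell with DMDA-PatA, 8 with puromycin and 7 with harringtonine. The fall was nearly universal, since edgeR called 99.3% of 12499 ORFs lower with DMDA-PatA, 90.1% with puromycin and 92.9% with harringtonine, so that the counts of the members are close to the background. None of the members rose (0.0560% of all ORFs with DMDA-PatA, 0.352% with puromycin and 0.512% with harringtonine). Their median log2 change was -4.11 with DMDA-PatA, -2.22 with puromycin and -2.82 with harringtonine, against -4.32, -2.48 and -2.97 over all ORFs, in the same order. What set the members apart from each other was the size of the fall, which ran with DMDA-PatA from 5.81-fold for Eif4a2 to 72.2-fold for Eif4g1. Values were normalized to a spike-in RNA added per amount of total RNA, and in these bulk samples fewer cells carrying a transcript and fewer footprints per cell cannot be told apart.

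**Figure D2:**
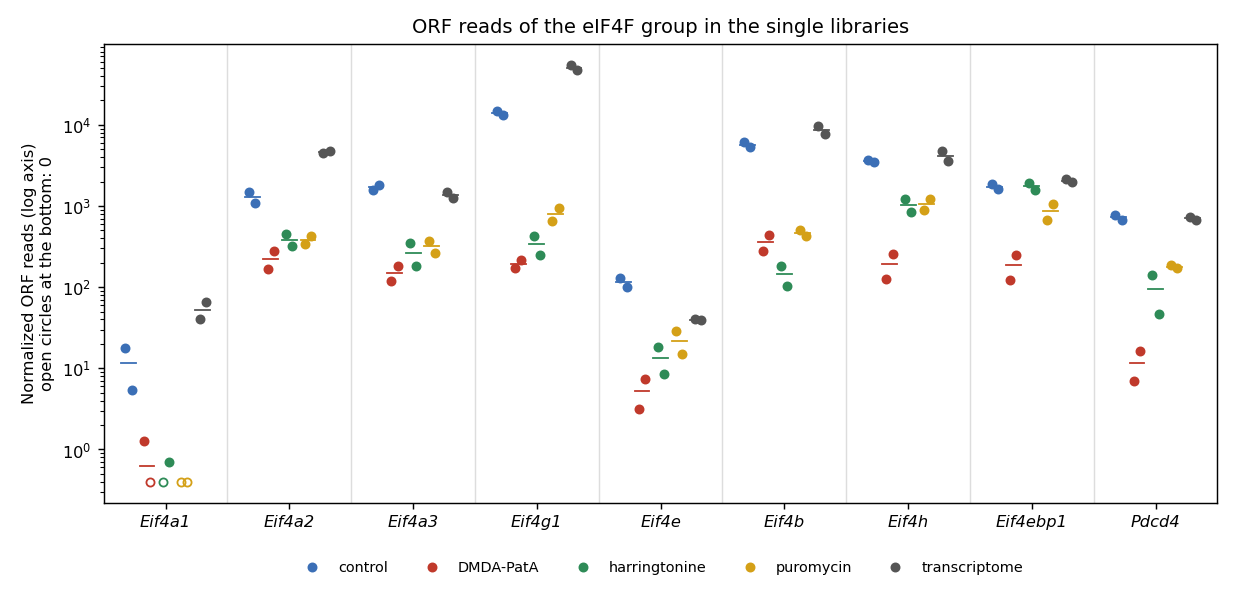
Points show normalized ORF reads in the single libraries on a log axis and short lines the group means of 2 libraries, for footprints in 4 conditions and for the transcriptome. Every member lies lower with DMDA-PatA than in the control, and Eif4ebp1 with harringtonine (1929.8 and 1582) lies at its control level.

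The helicases eIF4A1 and eIF4A2 unwind the 5' UTR, and eIF4A3 marks spliced exon junctions. The ORF of Eif4a1 (chr11:69666936-69672317) held 15 and 6 reads in the control, compared with 2 and 0 (DMDA-PatA), 0 and 1 (harringtonine) and 0 and 0 (puromycin), too few for the test. Eif4a2 (chr16:23107759-23113946) had 1496 and 1095 normalized footprints in the control, compared with 166 and 280.0 (DMDA-PatA), 450.5 and 323 (harringtonine) and 339 and 423 (puromycin). All drug libraries were below both controls, and those with DMDA-PatA were the lowest. The log2 change of Eif4a2 was -2.54 ± 0.46 with DMDA-PatA (edgeR adjusted p = 3.93e-08), -1.75 ± 0.45 with harringtonine (adjusted p = 0.000118) and -1.76 ± 0.45 with puromycin (adjusted p = 0.000133). With DMDA-PatA 95.0% of the coding transcripts fell further than Eif4a2. Eif4a3 (chr11:119292841-119300014) had 1573 and 1830.2 normalized footprints in the control, compared with 118 and 183 (DMDA-PatA), 350.0 and 185 (harringtonine) and 374 and 266 (puromycin). Here too no drug library reached the controls, while harringtonine and puromycin overlapped with each other. Its log2 change was -3.50 ± 0.48 with DMDA-PatA (edgeR adjusted p = 5.38e-13), -2.67 ± 0.46 with harringtonine (adjusted p = 1.51e-08) and -2.41 ± 0.46 with puromycin (adjusted p = 3.79e-07). The listed transcripts of Eif4a2 and Eif4a3 carry 88.7% and 72.6% of the longest annotated coding sequence of their genes.

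Eif4g1 (chr16:20672823-20692884), which encodes the scaffold that joins eIF4E, eIF4A and eIF3, had the most footprints of all members per ORF, though not per kb, and was among those that fell furthest. It had 14664 and 13433 normalized footprints in the control, compared with 172 and 217 (DMDA-PatA), 425 and 251 (harringtonine) and 649 and 940.1 (puromycin). The libraries of the drugs did not overlap with the control or with each other. The log2 change was -6.17 ± 0.57 with DMDA-PatA (edgeR adjusted p = 5.42e-26), -5.38 ± 0.55 with harringtonine (adjusted p = 6.18e-21) and -4.14 ± 0.52 with puromycin (adjusted p = 1.78e-14). Only 5.07%, 1.97% and 6.83% of the coding transcripts fell further with these drugs. Its place among the members was not resolved from Pdcd4 with DMDA-PatA, where without DMDA-PatA replicate 2 Eif4g1 was at -6.35 and Pdcd4 at -6.69, nor from Eif4b with harringtonine. The mRNA of the cap-binding protein, Eif4e (chr3:138526179-138559696), had 129.7 and 101 normalized footprints in the control, compared with 3.16 and 7.31 (DMDA-PatA), 18.3 and 8.40 (harringtonine) and 29.0 and 14.9 (puromycin). All drug libraries were below the controls, and the log2 changes stood in the same order as for the median transcript. The harringtonine and puromycin libraries overlapped, and neither DMDA-PatA against harringtonine nor harringtonine against puromycin passed (edgeR adjusted p = 0.0581 and 0.475). The log2 change of Eif4e was -4.48 ± 0.55 with DMDA-PatA (edgeR adjusted p = 8.25e-16), -3.15 ± 0.50 with harringtonine (adjusted p = 6.08e-10) and -2.45 ± 0.50 with puromycin (adjusted p = 2.45e-06). With 5 and 9 reads in the DMDA-PatA libraries the value leans on single libraries, and it was -5.13 without DMDA-PatA replicate 2 and -3.75 for harringtonine without harringtonine replicate 1.

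The cofactors of eIF4A responded in different ways. Eif4b (chr15:102073773-102097173), which encodes the RNA-binding cofactor that raises helicase activity, had 6070.1 and 5290.2 normalized footprints in the control, compared with 279 and 439 (DMDA-PatA), 184 and 104 (harringtonine) and 505 and 427 (puromycin). It was the only tested member whose harringtonine libraries were both below its DMDA-PatA libraries. The log2 change of Eif4b was -3.98 ± 0.50 with DMDA-PatA (edgeR adjusted p = 4.12e-15), -5.31 ± 0.54 with harringtonine (adjusted p = 3.82e-21) and -3.61 ± 0.49 with puromycin (adjusted p = 2.48e-12). Eif4h (chr5:134619877-134639347), a smaller cofactor related to part of eIF4B, had 3697 and 3529 normalized footprints in the control, compared with 128 and 256 (DMDA-PatA), 1206 and 842 (harringtonine) and 883 and 1207 (puromycin). The harringtonine and puromycin libraries overlapped, between the controls and DMDA-PatA. Its log2 change was -4.24 ± 0.51 with DMDA-PatA (edgeR adjusted p = 1.72e-16), -1.82 ± 0.46 with harringtonine (adjusted p = 8.87e-05) and -1.79 ± 0.46 with puromycin (adjusted p = 0.000142). Without DMDA-PatA replicate 2 the value of Eif4h with DMDA-PatA was -4.82.

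The footprints of both inhibitors fell with DMDA-PatA and parted with harringtonine. Eif4ebp1 (chr8:27260329-27276674) encodes 4E-BP1, which mTOR phosphorylation releases from eIF4E. It had 1865 and 1599.9 normalized footprints in the control, compared with 124 and 247 (DMDA-PatA), 1929.8 and 1582 (harringtonine) and 676 and 1064 (puromycin). The harringtonine libraries spanned the control range, and those of the other drugs were below it. The log2 change was -3.22 ± 0.48 with DMDA-PatA (edgeR adjusted p = 3.28e-11), 0.02 ± 0.44 with harringtonine (adjusted p = 0.966) and -0.99 ± 0.45 with puromycin (adjusted p = 0.030). With harringtonine 98.4% of the coding transcripts had a lower log2 change than Eif4ebp1. Its listed ORF of 351 nt is the shortest among the members. The paper reports a weaker block of shorter coding sequences by harringtonine and, most clearly, by puromycin. For harringtonine it ascribes this at least in part to footprints that pile up near the start of some coding sequences. The part of ORF length or of such a pile-up in the Eif4ebp1 values was not tested. The puromycin call did not pass when any of the control or puromycin libraries was left out, with values from -1.36 without puromycin replicate 2 (adjusted p = 0.0512) to -0.70 without puromycin replicate 1 (adjusted p = 0.289), and -0.88 and -1.10 without control replicates 1 and 2. Pdcd4 (chr19:53892231-53929851), whose protein binds eIF4A and blocks its entry into eIF4F, had 782 and 676 normalized footprints in the control, compared with 6.94 and 16.2 (DMDA-PatA), 142 and 46.2 (harringtonine) and 188 and 170.4 (puromycin). The groups did not overlap, and the DMDA-PatA libraries, with 11 and 20 reads, lay far below the others. Its log2 change was -5.99 ± 0.55 with DMDA-PatA (edgeR adjusted p = 3.13e-26), -2.97 ± 0.46 with harringtonine (adjusted p = 2.39e-10) and -2.02 ± 0.44 with puromycin (adjusted p = 9.05e-06). The DMDA-PatA value was -6.69 without DMDA-PatA replicate 2, and the harringtonine value was -3.98 without harringtonine replicate 1 and -2.36 without harringtonine replicate 2.

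To see the members against the common fall, the same reads were scaled by TMM factors, which place the bulk of the transcripts near 0. The median log2 change over all ORFs was then -0.12 with DMDA-PatA, -0.04 with puromycin and -0.12 with harringtonine, and the members' medians were 0.08, 0.22 and -0.03, in the same order. With each drug 2 members were lower and 3 higher than the other transcripts. Over all ORFs 23.6% were called lower and 18.8% higher with DMDA-PatA, 30.0% and 26.6% with harringtonine and 24.9% and 24.3% with puromycin. Eif4g1 was lower with every drug, by -1.93 ± 0.20 with DMDA-PatA (edgeR adjusted p = 4.41e-07), -2.53 ± 0.21 with harringtonine (adjusted p = 5.38e-09) and -1.69 ± 0.20 with puromycin (adjusted p = 1.05e-06). Eif4a2 and Eif4ebp1 were higher with every drug. Eif4a2 stood at 1.67 ± 0.19 with DMDA-PatA (edgeR adjusted p = 1.35e-06), 1.15 ± 0.19 with harringtonine (adjusted p = 3.32e-05) and 0.70 ± 0.19 with puromycin (adjusted p = 0.00492), and Eif4ebp1 at 0.96 ± 0.23 (adjusted p = 0.00222), 2.93 ± 0.24 (adjusted p = 4.62e-09) and 1.47 ± 0.23 (adjusted p = 2.35e-05).

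The other members differed from the bulk with only some of the drugs. Pdcd4 was lower with DMDA-PatA (-1.80 ± 0.31, edgeR adjusted p = 0.000100), and Eif4a3 was higher (0.70 ± 0.20, adjusted p = 0.00772). Eif4b was lower with harringtonine (-2.47 ± 0.19, edgeR adjusted p = 2.76e-09) and puromycin (-1.16 ± 0.18, adjusted p = 2.65e-05), and Eif4h was higher with harringtonine (1.06 ± 0.20, adjusted p = 0.000143) and puromycin (0.66 ± 0.20, adjusted p = 0.00951). Eif4e passed with no drug. Some of these calls rested on single libraries. With DMDA-PatA the call of Eif4a3 did not pass without DMDA-PatA replicate 2 (adjusted p = 0.0653) or control replicate 1 (adjusted p = 0.120), and that of Eif4ebp1 did not pass without DMDA-PatA replicate 2 (adjusted p = 0.0748). With puromycin the call of Eif4a2 did not pass without puromycin replicate 2 (adjusted p = 0.0696) or control replicate 2 (adjusted p = 0.0962), and that of Eif4h did not pass without puromycin replicate 2 (adjusted p = 0.136) or control replicate 1 (adjusted p = 0.0812).

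**Figure D3:**
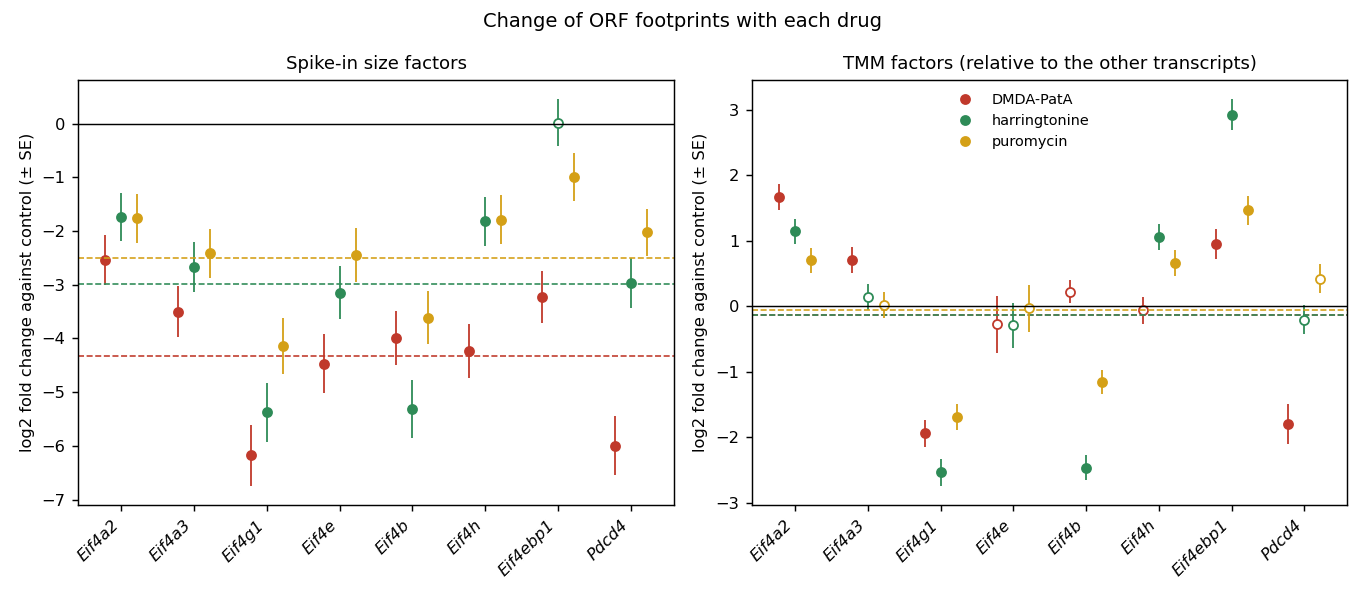
Points show the log2 fold change of ORF footprints against the control with 1 SE from edgeR, on spike-in size factors (left) and on TMM factors (right), filled where the adjusted p is under 0.05. Dashed lines mark the median of coding transcripts for each drug. Eif4g1 lies below all 3 lines in both panels, while Eif4a2 and Eif4ebp1 lie above them.

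The drugs were also compared with each other, which were applied at different concentrations and, in the case of puromycin, for a longer time. With DMDA-PatA 3 of 8 members had fewer footprints than with harringtonine, and 1 had more (52.8% and 0.432% of all ORFs). The 3 were Eif4ebp1 (log2 difference -3.24 ± 0.48, edgeR adjusted p = 7.81e-10), Pdcd4 (-3.03 ± 0.51, adjusted p = 7.66e-08) and Eif4h (-2.42 ± 0.47, adjusted p = 2.96e-06). With TMM factors 3 members were lower and 4 higher, counts that stand without the share of all ORFs and are no result about the members. The exception in direction on spike-in factors was Eif4b at 1.33 ± 0.46 (edgeR adjusted p = 0.0103), where 99.1% of the coding transcripts had a lower difference. Without DMDA-PatA replicate 2 the Eif4b difference was 0.96 with adjusted p = 0.0961 and 5 members passed as lower, and without harringtonine replicate 2 a total of 7 did. That of Pdcd4 ranged from -3.72 without DMDA-PatA replicate 2 and -3.65 without harringtonine replicate 2 to -2.03 without harringtonine replicate 1, and that of Eif4h was -3.0 without DMDA-PatA replicate 2.

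Against puromycin DMDA-PatA left fewer footprints on 6 of 8 members and more on 0 (67.4% and 0.432% of all ORFs). The largest difference was that of Pdcd4 (-3.97 ± 0.52, edgeR adjusted p = 1.39e-12), followed by Eif4h (-2.45 ± 0.47, adjusted p = 1.30e-06), Eif4ebp1 (-2.23 ± 0.47, adjusted p = 7.72e-06), Eif4g1 (-2.03 ± 0.48, adjusted p = 6.98e-05), Eif4e (-2.03 ± 0.63, adjusted p = 0.00282) and Eif4a3 (-1.08 ± 0.45, adjusted p = 0.0255). Eif4a2 and Eif4b did not pass. These calls depended on the scaling, since with TMM factors 2 members were lower and 3 higher, Eif4g1, Eif4e and Eif4ebp1 did not pass and Eif4a3 turned to 0.68. The share of all ORFs called on that scale is not given. Without DMDA-PatA replicate 2 the differences of Pdcd4, Eif4h and Eif4e were -4.66, -3.03 and -2.68. The call of Eif4a3 did not pass without any of the DMDA-PatA replicate 1, puromycin or control libraries (adjusted p from 0.0582 to 0.234), and that of Eif4e did not pass without DMDA-PatA replicate 1 (adjusted p = 0.0727) or puromycin replicate 1 (adjusted p = 0.0872). Harringtonine and puromycin differed for 1 of 8 members (9.94% of all ORFs lower with harringtonine and 1.20% higher). This was Eif4b, lower with harringtonine by -1.70 ± 0.47 (edgeR adjusted p = 0.00665), a call that did not pass without puromycin replicate 1 (adjusted p = 0.139) or 2 (adjusted p = 0.0893). Without harringtonine replicate 1 a total of 3 members passed as lower, and without DMDA-PatA replicate 1 or 2 there were 2.

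The 5' UTR footprints changed in both directions. The 5' UTRs of 5 members had enough reads, and with DMDA-PatA 2 of them rose and 1 fell (14.7% and 29.0% of 6647 5' UTRs), with harringtonine 2 rose and 0 fell (35.1% and 5.21%), and with puromycin 0 passed in either direction (0.557% and 0.406%). The median log2 change of the 5 members was 0.93 with DMDA-PatA, 0.13 with puromycin and 1.30 with harringtonine, against -0.48, 0.07 and 0.88 over all 5' UTRs, in the same order. Eif4a2, Eif4h and Pdcd4 had fewer than 10 reads in each control and passed the read filter only through drug libraries. A rise thus helped to decide that they were tested, and these counts and medians are no support for a rise. The same filter was used for all 5' UTRs. Eif4a1 and Eif4a3, with listed 5' UTRs of 16 and 18 nt, and Eif4ebp1 had no 5' UTR footprint in any ribosome profiling library, and Eif4e had 0 to 3 reads.

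Eif4a2 gained 5' UTR footprints with DMDA-PatA while its ORF lost them. It had 4 and 3 reads on its 33 nt in the control (4.72 and 2.72 normalized footprints), and 82 and 100 reads (51.8 and 81.2) with DMDA-PatA. The harringtonine libraries had 9.13 and 9.10 and the puromycin libraries 6.20 and 2.49 normalized footprints, so that only DMDA-PatA stood far from the control. The log2 change was 4.15 ± 0.68 (edgeR adjusted p = 3.06e-08), and 97.7% of the coding transcripts had a lower value. Eif4h had 1.18 and 2.72 normalized 5' UTR footprints in the control, compared with 10.1 and 21.1 (DMDA-PatA), 17.2 and 13.3 (harringtonine) and 0 and 1.24 (puromycin). Both libraries of DMDA-PatA and of harringtonine were above both controls, which held 1 and 3 reads. The log2 change was 2.85 ± 0.84 with DMDA-PatA (edgeR adjusted p = 0.00294) and 2.83 ± 0.85 with harringtonine (adjusted p = 0.00403). Without control replicate 1 these values were 2.45 and 2.43 and did not pass (adjusted p = 0.0602 and 0.0714), without control replicate 2 they were 3.58 and 3.56, and without DMDA-PatA replicate 2 the former was 2.25.

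On Eif4g1, whose listed 5' UTR carries upstream AUG codons, the 5' UTR was densely covered already in the control. The listed ORF of Eif4g1 is 4659 nt long, 97.1% of the longest annotated coding sequence of 4800 nt. Whether part of the listed 5' UTR is coding in a longer form was not tested. It had 1297 and 1029 normalized 5' UTR footprints in the control, compared with 99.1 and 162 (DMDA-PatA), 821 and 430.5 (harringtonine) and 800.3 and 699 (puromycin). DMDA-PatA was the lowest group, and the harringtonine and puromycin libraries were between it and the control. Per kb, the control had 3578 normalized footprints on the 5' UTR and 3015 on the ORF, while the transcriptome had 2838 and 10931. The log2 change of the Eif4g1 5' UTR was -3.16 ± 0.47 with DMDA-PatA (edgeR adjusted p = 9.36e-10) and -0.90 ± 0.43 with harringtonine (adjusted p = 0.0830). Without harringtonine replicate 1 the harringtonine value was -1.43 with adjusted p = 0.0291, and without DMDA-PatA replicate 1 or 2 it stayed at -0.90 with adjusted p = 0.0390 and 0.0394.

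Pdcd4, the other member with upstream AUG codons, had few 5' UTR footprints. It had 3 and 1 reads there in the control, compared with 5 and 2 (DMDA-PatA), 15 and 10 (harringtonine) and 3 and 0 (puromycin). The harringtonine libraries were the highest. The log2 change with harringtonine was 2.31 ± 0.94 (edgeR adjusted p = 0.0368). Without control replicate 2 it was 1.58 with adjusted p = 0.307, and without control replicate 1 it was 3.42. The call also did not pass with DESeq2 (adjusted p = 0.150), limma with a pseudocount of 0.5 (0.0634), TMM factors (0.175) and swapped size factors (0.0715), and it passed by limma with a pseudocount of 1. Eif4b had 21.2 and 9.06 normalized 5' UTR footprints in the control, compared with 22.1 and 34.9 (DMDA-PatA), 29.4 and 18.9 (harringtonine) and 22.7 and 24.9 (puromycin). The drug libraries were above the higher control, other than harringtonine replicate 2, and the DMDA-PatA change of 0.93 ± 0.57 did not pass (edgeR adjusted p = 0.179). It passed with TMM factors (1.52, adjusted p = 0.00572) and when harringtonine and DMDA-PatA libraries swapped their size factors (1.14, adjusted p = 0.0455).

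The share of footprints that lay in the 5' UTR shows the members beside the other transcripts. For Eif4g1 it was 8.12% and 7.11% in the control, compared with 36.5% and 42.7% (DMDA-PatA), 65.9% and 63.1% (harringtonine) and 55.2% and 42.6% (puromycin). All drug libraries were above the control, and harringtonine gave the highest share. For Eif4a2 the share went from 0.314% and 0.248% in the control to 23.8% and 22.5% with DMDA-PatA, while the harringtonine libraries had 1.99% and 2.74% and the puromycin libraries 1.80% and 0.585%. Over 8045 coding transcripts the median share was 1.36% in the control, compared with 27.7% (DMDA-PatA), 22.5% (harringtonine) and 9.15% (puromycin). The percent of these transcripts with a higher share than Eif4g1 was 21.6% in the control, 38.7% with DMDA-PatA, 13.1% with puromycin and 16.3% with harringtonine, so that Eif4g1 lay nearest to the middle with DMDA-PatA.

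**Figure D4:**
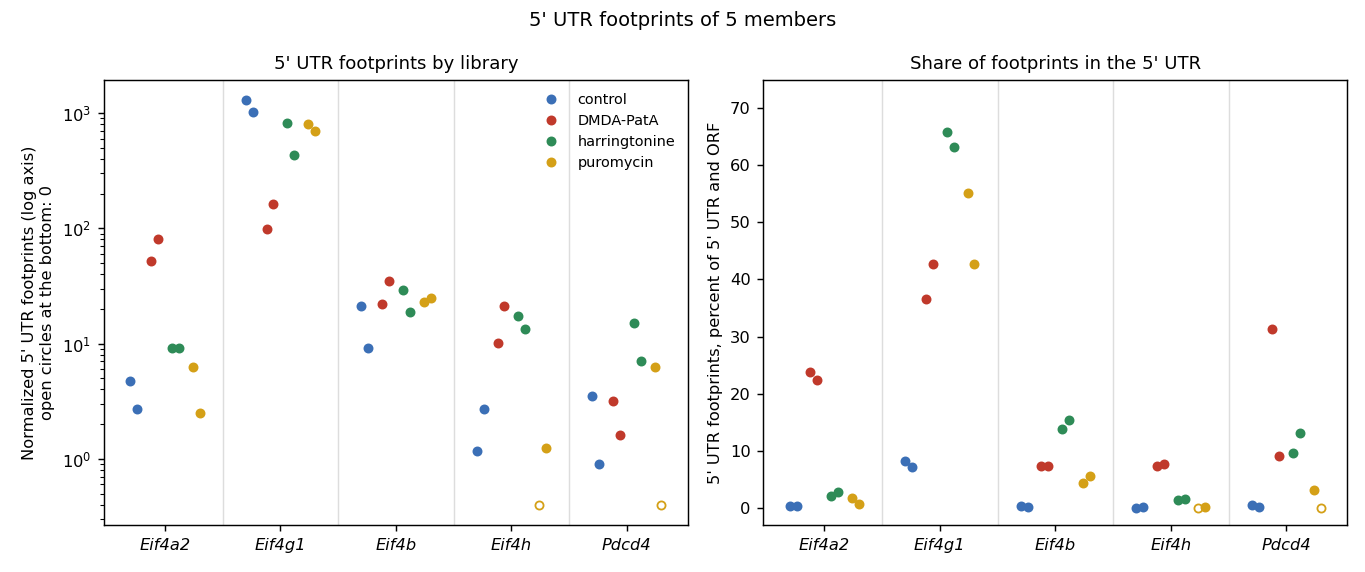
Points show the normalized 5' UTR footprints of 5 members in the single ribosome profiling libraries on a log axis (left) and the percent of their 5' UTR and ORF footprints that lay in the 5' UTR (right), with open circles for 0. Eif4a2 with DMDA-PatA (51.8 and 81.2) stands above its other groups, and the 5' UTR share of Eif4g1 is higher with each drug than in the control.

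The change of the 5' UTR was tested against that of the ORF within the same libraries, a comparison that does not depend on the size factors. The log2 change of the 5' UTR was above that of the ORF in 5 of 5 members with DMDA-PatA (93.6% of 6497 transcripts), 5 of 5 with harringtonine (95.4%) and 2 of 5 with puromycin (78.3%). Eif4a2, Eif4h and Pdcd4 passed the read filter on the 5' UTR only through drug libraries. This favours a positive difference for them, so the members' counts and medians are no support for one. The opposite was called for 0 members (0.139%, 0.123% and 0.0616% of transcripts). The median log2 difference over the 5 members was 6.30 with DMDA-PatA, 2.22 with puromycin and 4.66 with harringtonine, against 4.36, 2.55 and 4.00 over all transcripts, in the same order. With DMDA-PatA the difference was 7.09 ± 0.56 for Eif4h (edgeR adjusted p = 6.36e-10), 6.69 ± 0.55 for Eif4a2 (adjusted p = 1.07e-09), 6.30 ± 1.16 for Pdcd4 (adjusted p = 4.01e-05), 4.95 ± 0.41 for Eif4b (adjusted p = 1.14e-09) and 2.99 ± 0.36 for Eif4g1 (adjusted p = 1.49e-07). Eif4g1 thus had the smallest difference with DMDA-PatA among the 5 members, and 22.6% of the transcripts were lower. With harringtonine the values were 6.06 ± 0.44 for Eif4b (edgeR adjusted p = 2.30e-10), 5.38 ± 0.80 for Pdcd4 (adjusted p = 2.85e-06), 4.66 ± 0.60 for Eif4h (adjusted p = 4.34e-07), 4.47 ± 0.35 for Eif4g1 (adjusted p = 6.54e-10) and 3.07 ± 0.65 for Eif4a2 (adjusted p = 0.000177). With puromycin Eif4b (4.36 ± 0.50, edgeR adjusted p = 4.51e-07) and Eif4g1 (3.53 ± 0.35, adjusted p = 8.30e-08) passed, and without puromycin replicate 2 a total of 4 members did. The values of Pdcd4 and Eif4h moved with single control or drug libraries. With DMDA-PatA that of Pdcd4 lay between 5.15 without DMDA-PatA replicate 1 and 7.30 without control replicate 1, with 5.67 without control replicate 2 and 7.27 without DMDA-PatA replicate 2, and that of Eif4h was 7.86 without control replicate 2. With harringtonine that of Pdcd4 was 6.38 and 4.75 without control replicates 1 and 2, and that of Eif4h was 5.43 without control replicate 2.

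Genes that act with eIF4F were described in the same tests. Among partners and regulators of the cap complex, 17 of 18 genes were listed and tested, and 17 of 17 fell with DMDA-PatA, 16 with puromycin and 14 with harringtonine, where 99.3%, 90.1% and 92.9% of all ORFs fell. The counts of all 4 gene lists on this scale were near these shares and are no result about the lists. Against the other transcripts 9 of the 17 were lower with DMDA-PatA and 2 higher (23.6% and 18.8% of all ORFs), with a median log2 change of -0.72 against -0.12 over all ORFs. The poly(A)-binding protein gene Pabpc4 went from 128 and 112 normalized footprints to 1.26 and 0, the lowest of the list relative to its control, and Ncbp2, a subunit of the nuclear cap-binding complex, fell least, from 279 and 294 to 22.1 and 39.0 (-3.24 ± 0.46, edgeR adjusted p = 4.55e-12). Of the 10 genes that relay mTOR signals to eIF4F, 10 fell with DMDA-PatA, 9 with puromycin and 9 with harringtonine (99.3%, 90.1% and 92.9% of all ORFs), and against the other transcripts 2 were lower and 5 higher with DMDA-PatA (23.6% and 18.8% of all ORFs, median 0.36 for the list). Rptor, the mTORC1 scaffold, went from 1542 and 1366 to 27.8 and 34.1 (-5.55 ± 0.53, edgeR adjusted p = 1.96e-24), and the S6 kinase gene Rps6kb2 from 68.4 and 62.5 to 2.53 and 17.0 (-2.80 ± 0.51, adjusted p = 4.58e-08).

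Of the 9 genes whose products work with eIF4A3 at exon junctions, 9 fell with DMDA-PatA, 8 with puromycin and 8 with harringtonine (99.3%, 90.1% and 92.9% of all ORFs). Against the other transcripts 2 were lower and 1 higher with DMDA-PatA (23.6% and 18.8% of all ORFs, median -0.03 for the list). The splicing factor gene Cwc22 fell most, from 206 and 193 normalized footprints to 0.631 and 8.12 (-5.59 ± 0.58, edgeR adjusted p = 2.24e-21), and Magoh, a core subunit of the complex, least, from 1696 and 1265 to 116 and 129 (-3.59 ± 0.49, adjusted p = 2.31e-13). Of 8 other helicases that act in translation, 8 fell with every drug (99.3%, 90.1% and 92.9% of all ORFs with DMDA-PatA, puromycin and harringtonine). Against the other transcripts 6 of these helicases were lower and 1 higher with DMDA-PatA (23.6% and 18.8% of all ORFs, median -0.84 for the list). Dhx9 went from 13291 and 11843 to 121 and 172 (-6.43 ± 0.57, edgeR adjusted p = 2.82e-27), and Ddx19b from 140.3 and 90.6 to 13.3 and 21.9 (-2.72 ± 0.48, adjusted p = 1.71e-08). The helicases were low by this measure with every drug, 6 lower and 1 higher with harringtonine (median -0.72), 6 and 2 with puromycin (median -1.03). With harringtonine the cap complex list had 7 lower and 7 higher, the mTOR list 2 and 4, the exon junction list 4 and 4. With puromycin these lists had 6 and 7, 4 and 3, and 2 and 4. Of all ORFs 30.0% were lower and 26.6% higher with harringtonine, 24.9% and 24.3% with puromycin. On the 5' UTR, 5 cap complex genes fell and 3 rose of 11 tested with DMDA-PatA, 3 fell and 0 rose of 5 in the mTOR list, 1 fell and 1 rose of 6 in the exon junction list, and 0 fell and 2 rose of 8 among the helicases, where 29.0% of all 5' UTRs fell and 14.7% rose.

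The 3 coding transcripts whose changes with the 3 drugs lay nearest to the medians of the members, of 8194 with at least 100 reads in each control library, were Hsdl2, Hp1bp3 and Mtx1, at distances of 0.0784, 0.0883 and 0.103 on the log2 scale. Their log2 changes with DMDA-PatA were -4.17, -4.11 and -4.04, beside the members' median of -4.11.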

How the data were processed

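Ribosome profiling and transcriptome libraries were sequenced on a SOLiD instrument and aligned by the authors to mm10 with LifeScope. Picard 1.38 is named in the submitters' processing notes. The authors discarded reads with multiple matches or a match quality below 10 and selected 1 transcript per gene. The deposited values are a signal per region (ORF, 5' UTR, 3' UTR), reads scaled by the authors to equal spike-in reads, or between replicates for the transcriptome. All 1081554 values above 0 came out as whole reads (100%, tolerance 0.01 reads), and the recovered reads were tested. Of the transcript IDs, 15074 of 15269 matched GENCODE M21, which gave symbols, positions and sequences. The listed positions of Eif4e, Eif4h and Eif4ebp1 differed from that release, and the transcript whose coding length is the listed one was used for their sequences.

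The test was the edgeR 4.0.16 quasi-likelihood test in R 4.3.3 with Benjamini-Hochberg adjustment over all features and a threshold of 0.05, on the authors' size factors, with 4 conditions in 1 fit. On ORFs it called 12414 of 12499 lower with DMDA-PatA. A feature was tested if 2 or more libraries held 10 or more reads. SE is the log2 change divided by the root of the F statistic. Alternatives used limma 3.58.1 (log2 of value + 1 or + 0.5), DESeq2 1.42.0, other size factors, no filter, a replicate block and leaving out libraries. The code was tested on simulated data. Python 3.11.15, pandas 2.3.3 and matplotlib 3.10.9 were used elsewhere. The methods name the 2 libraries of a condition biological replicates. Their number limits the precision also for the abundant members, while reads cover counting error only.

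The members and pathway lists were chosen with earlier results of these data known. Named genes were the members, the gene of each list with the largest and the smallest DMDA-PatA decrease, and the 3 transcripts of nearest pattern.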

Additional observations from a re-analysis of the deposited data

Results flagged for a closer look

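The 3' UTR, which the comparisons did not use, was looked at in each of the 9 members with each drug. It held more footprints in both libraries of a drug than in both controls in 4 cases. With 2 libraries a side such an order also arises by chance. The share over all transcripts is not given, so the count is no result about the members. For Eif4g1 the mean was 11.3 normalized footprints with harringtonine and 7.87 with puromycin, against 5.89 and 1.81 in the controls. For Eif4a1 it was 2.06 with harringtonine against 0 and 0.906, and for Pdcd4 1.36 with harringtonine against 0 and 0. The Eif4a1 and Pdcd4 values rest on 1 to 3 reads a library, and none of the differences was tested.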

How the results depend on the processing

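The changes against the control depend on what they are measured from. TMM factors take out the common fall, so a member that fell less than the bulk turns positive by construction. Values on TMM factors are the relative changes given above and do not test the fall on spike-in factors. With TMM factors the lower and higher members against the control numbered 2 and 3 for each drug. Single values turned from negative to positive with DMDA-PatA for Eif4a2 (1.67), Eif4a3 (0.70), Eif4b (0.23) and Eif4ebp1 (0.96). With harringtonine they did so for Eif4a2 (1.15), Eif4a3 (0.15) and Eif4h (1.06). With puromycin they did so for Eif4a2 (0.70), Eif4a3 (0.023), Eif4h (0.66), Eif4ebp1 (1.47) and Pdcd4 (0.43). With TMM factors 4 members were higher with DMDA-PatA than with harringtonine. Against puromycin 2 were lower with DMDA-PatA and 3 higher, Eif4a3 among them at 0.68, and 2 were lower and 1 higher with harringtonine. On the 5' UTR 1 member was lower and 1 higher with harringtonine. For the drugs against each other and the 5' UTR, shares of all features under other settings are not given. A changed count of members there is no result about the members. Exchanging the size factors of the DMDA-PatA and harringtonine libraries, replicate by replicate, gave 3 members lower and 1 higher with harringtonine than with puromycin, 1 lower and 1 higher 5' UTR with harringtonine, and -0.19 for Eif4ebp1 with harringtonine. DESeq2 gave 2 members lower with harringtonine than with puromycin. On the 5' UTR with harringtonine, 1 member was higher by DESeq2, limma with + 0.5 and the replicate block. For Eif4a1 against the transcriptome, TMM factors and DESeq2 gave -0.91 and -0.97 with adjusted p = 0.0742 and 0.186. All 78 single values kept their call without the filter, as they did with limma and + 1 (42 values), and the other scalings of the relative changes kept all 15.

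Same-numbered libraries deviated together at most weakly (r from -0.0236 to 0.104 over 8202 transcripts), which does not settle whether the numbers pair them. With a replicate block, Eif4ebp1 with puromycin (-1.03, adjusted p = 0.0503), Eif4a3 for DMDA-PatA against puromycin (-1.06, adjusted p = 0.0587) and the Pdcd4 5' UTR with harringtonine (2.37, adjusted p = 0.0631) did not pass, and the other 75 single values kept their call.

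Where a library was left out, its partner was assumed to vary like the other groups. The members lower with DMDA-PatA than with harringtonine then numbered 3 to 7 and those higher 0 to 1, and the members lower with harringtonine than with puromycin 0 to 3 and those higher 0 to 1. The higher 5' UTRs against the ORF numbered 2 to 4 with puromycin. Relative to the other transcripts, 1 to 3 members were higher with DMDA-PatA and 1 to 4 with puromycin. The 5' UTRs that rose numbered 1 to 2 with DMDA-PatA and 1 to 2 with harringtonine, where 0 to 1 fell. The shares of all features in these fits are not given, so a change in these counts is no result about the members. Eif4ebp1 with harringtonine ranged from -0.13 to 0.16. Low read numbers limit Eif4a1, Eif4e and some of the 5' UTRs, and for Eif4a1 and Eif4e the part of discarded reads was not tested. The causes of these changes were not tested.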

Other observations

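The 3' UTR of the listed Eif4a2 transcript held 231 and 218 normalized footprints in the control, compared with 125 and 261 (DMDA-PatA), 294 and 81.2 (harringtonine) and 182 and 276 (puromycin). The drug libraries overlapped with the controls, unlike those of the Eif4a2 ORF. In the other members the 3' UTR held at most 34.5 normalized footprints in any ribosome profiling library. The listed Eif4a2 coding sequence is 1086 nt long and the longest annotated one 1224 nt.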
